A study of Homo sapiens with 8 samples.

Results

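Oxidative phosphorylation is carried out by 5 complexes of the inner mitochondrial membrane. Complexes I to IV pass electrons from NADH and succinate to oxygen and pump protons, and ATP synthase uses the proton gradient to make ATP. Most subunits are encoded in the nucleus, made in the cytoplasm and imported. IGF2BP2 (also called IMP2), a member of the insulin-like growth factor 2 mRNA-binding protein family that acts on mRNA stability, transport and translation, has been reported to bind such mRNAs in glioma stem cells. PTBP1, the polypyrimidine tract-binding protein, is best known as a regulator of splicing.

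The nuclear oxidative phosphorylation genes were taken from the gene names that the deposited peak lists carry: names that begin with NDUFA, NDUFB, NDUFC, NDUFS or NDUFV and a number, with UQCR, with COX and a number from 4 to 8, or with ATP5, together with SDHA to SDHD and CYC1. This gave 87 gene symbols of 19767. Complex I had 37, complex II 4, complex III 10, complex IV 16 with NDUFA4, and ATP synthase 15. NDUFA4L2, named COXFA4L2 in RefSeq, was left with complex I by its deposited name. The other 5 were the readthrough genes ATP5MF-PTCD1 and NDUFC2-KCTD14 and the antisense or divergent transcripts NDUFA6-DT, NDUFB2-AS1 and NDUFV2-AS1, which the rule admits and which are counted apart. Membership rests on the name alone and on no measured value.

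RNA bound by each protein had been profiled by enhanced crosslinking and immunoprecipitation (eCLIP) in A172, an established human glioma cell line. All cells had received 500 µM 4-thiouridine for 3 h, a uridine analogue that crosslinks to bound protein under 365 nm light, and 2 exposures of 400 mJ/cm2. The 8 libraries formed 4 groups of 2, namely IGF2BP2 immunoprecipitates (IP) and PTBP1 IP, then the inputs of IGF2BP2 and of PTBP1, each 2% of the lysate. No genotype or treatment differed between groups, so the comparison is between antibodies, which also differed in the membrane piece cut out, at about 65 to 140 kDa for IGF2BP2 and 55 to 130 kDa for PTBP1. Of the markers of glioma and mesenchymal cells, VIM, CD44, NES, EGFR and FN1 had peaks in exons in each of the 4 IP lists, GFAP had 2 and 0 in IGF2BP2 and 1 and 0 in PTBP1, and SOX2 and S100B had 0 throughout. Of the markers of leukocytes, epithelium and liver, CD3E, ALB and APOB had 0 in all lists and PTPRC, EPCAM and CDH1 at most 2 in any.

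Members held 842 and 770 of 362700 and 341305 peaks in IGF2BP2 replicates 1 and 2, and 1243 and 1167 of 600615 and 538802 in PTBP1 replicates 1 and 2. Those are 0.232% and 0.226% of the IGF2BP2 lists and 0.207% and 0.217% of the PTBP1 lists. In IGF2BP2, 77 and 74 of the 87 genes had a peak, and in PTBP1 83 and 84 had one. In all 4 lists 66 of the 87 had one, 7 had none in either IGF2BP2 list and 1, NDUFA4, had none in either PTBP1 list. The peaks were shallow. Their median was 4 IP reads in both IGF2BP2 libraries and 13 and 10 in the PTBP1 libraries, as reads could be recovered from the deposited scores, and it was close to that of all peaks (4 and 4, 12 and 9). Total depth of the libraries is unknown.

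Peaks were spread unevenly over the genes. The median gene had 6 peaks in each IGF2BP2 list, and 7 and 8 in the PTBP1 lists. NDUFA10, a long accessory subunit gene of complex I with 133 kb, had 107 and 75 peaks in IGF2BP2 and 179 and 184 in PTBP1. ATP5MF-PTCD1, a readthrough of the gene for subunit f of ATP synthase into PTCD1, had 106 and 102 in IGF2BP2 and 123 and 113 in PTBP1. Together these genes held 25.3% and 23% of the members' IGF2BP2 peaks and 24.3% and 25.4% of their PTBP1 peaks. Peak number went along with gene length, with a Spearman coefficient of 0.45 and 0.42 in IGF2BP2 and 0.59 and 0.61 in PTBP1 over 81 genes of known length, given as a description because genes of 1 library share its depth.

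Few oxidative phosphorylation genes carried a site that stood clearly above its input in both replicates. A peak is called enriched here when its log2 ratio of IP over input, on one scale for all chromosomes of a library, and its −log10 p are both at least 3. A region joins overlapping peaks of both replicates, and it is enriched when each replicate has an enriched peak in it. IGF2BP2 had enriched regions in 12 of 87 genes (13.8%), against a background of 19.4% of all 19767 genes. PTBP1 had them in 4 genes (4.6%), against a background of 14.0%. Both shares lie below the background, which is not matched for peak number. By peak number, the IGF2BP2 share of the members was below that of all genes only at 30 to 99 peaks. The gap between the proteins rests on the common scale, since on the deposited scale 13 genes passed for IGF2BP2 and 12 for PTBP1, and at a log2 of 4 with a −log10 p of 5 the common scale left 2 and 1. Among all genes, those with more peaks more often had such a region, so shares are also given by peak number over the 4 lists. At 30 to 99 peaks, 9.38% of the members and 19.1% of all genes had one of IGF2BP2, and 3.12% and 13.2% had one of PTBP1. At 10 to 29 peaks the shares were 9.68% and 7.44% for IGF2BP2, and 3.23% and 3.46% for PTBP1. The members were not below all genes at either end for IGF2BP2, with 12.5% (2 of 16 members) and 1.3% at 1 to 9 peaks, and 50.0% (4 of 8) and 49.3% at 100 or more. For PTBP1 the shares there were 0% and 0.563%, and 25.0% and 38.5%. With an enriched peak asked of 1 replicate only, IGF2BP2 had 27 such genes without replicate 1 and 29 without replicate 2, and PTBP1 15 and 13. Shares of all genes on the deposited scale, at the stricter thresholds and with 1 replicate are not given here. The threshold stands for different ratios of reads in the libraries of the proteins. The constant added to each log2 was 1.74 and 1.90 in the IGF2BP2 libraries, against -0.30 and -0.08 in the PTBP1 libraries. The same ratio of reads thus scored higher in IGF2BP2. The deposited −log10 p was recovered with a test that takes the chromosome's constant as the expected log2 of input over IP reads. Whether the constants stand for the depth of IP and input was not tested.

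The highest-scoring IGF2BP2 region of the group lay in the 3′ UTR of COX8A, a small subunit of complex IV (chromosome 11, 63976458 to 63976496, plus strand, hg38). It had 34 IP reads to 1 input read in replicate 1 and 20 to 2 in replicate 2, and its log2 was 6.83 and 5.23. A further COX8A region lay upstream in coding sequence (63976263 to 63976306), with 8 to 1 and 24 to 2 reads and a log2 of 4.74 and 5.49. COX8A is a short gene of 1.92 kb with 5 peaks in each IGF2BP2 list and 6 and 5 in PTBP1, and its few exonic peaks (4 and 2 in IGF2BP2, 1 and 2 in PTBP1) had a median log2 of 4.03 and 5.36 in IGF2BP2 against 0.35 and 1.56 in PTBP1. This is a description only, since the gene leads for its IGF2BP2 score and the scales differ by the constants above. The 3′ UTR region met no PTBP1 peak, while the coding region did.

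Complex IV held 7 of the 16 enriched IGF2BP2 regions, in 4 genes. COX7C, another small subunit, had 1 peak in each IGF2BP2 list, both in its 3′ UTR (chromosome 5, 86620668 to 86620688), with 6 to 1 and 9 to 1 reads and a log2 of 4.32 and 5.07. COX7A2L, which takes part in joining complexes III and IV into supercomplexes, had 3 regions annotated to introns, of which 2 abut (chromosome 2, 42347377 to 42347397, log2 4.32 and 4.49). NDUFA4, first counted to complex I and now to complex IV, had an intron region (chromosome 7, 10939730 to 10939753) with 6 to 1 reads in both replicates. NDUFA4 had 4 and 3 IGF2BP2 peaks and 0 and 0 PTBP1 peaks.

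Complex II and complex III followed. SDHB, the iron-sulfur subunit of succinate dehydrogenase, had an intron region (chromosome 1, 17026294 to 17026320) with 7 to 1 and 6 to 1 reads and a log2 of 4.55 and 4.49. SDHA, the flavoprotein subunit, had one in an intron (chromosome 5, 241545 to 241566) with 6 to 1 and 8 to 1 reads and a log2 of 4.32 and 4.90. SDHA has near-identical pseudogene copies, and where its reads belong is therefore uncertain. UQCRFS1, the Rieske iron-sulfur protein of complex III, had 2 abutting intron regions (chromosome 19, 29212256 to 29212276) and UQCRH, the hinge subunit, 1 (chromosome 1, 46314453 to 46314474), each with 8 to 1 and 6 to 1 reads and a log2 of 4.74 and 4.49. UQCRH, a gene of 13.1 kb, has a short copy of 0.276 kb, UQCRHL. There PTBP1 had a region of 103 to 11 and 104 to 9 reads (log2 2.92 and 3.45), while the IGF2BP2 region of UQCRH lay in an intron. CYC1, the heme-carrying cytochrome c1, had its region in the 3′ UTR (chromosome 8, 144097421 to 144097449), with 17 to 4 and 12 to 2 reads and a log2 of 3.83 and 4.49.

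The remaining IGF2BP2 regions were in ATP5MD (ATP5MK in RefSeq), a small membrane subunit of ATP synthase (intron, 21 to 4 and 12 to 2 reads, log2 4.13 and 4.49), in NDUFA10 (intron, 13 to 4 and 9 to 2 reads, log2 3.44 and 4.07) and in ATP5MF-PTCD1. The last lay in a 3′ UTR (chromosome 7, 99419785 to 99419807, log2 4.32 and 3.64), outside the span of ATP5MF itself (99458195 to 99466167). Of all 16 regions, 11 were annotated to introns, 4 to 3′ UTRs and 1 to coding sequence. They formed 14 sites once abutting regions were joined. In 9 of the 16 a single input read stood against 6 to 9 IP reads in both replicates. Another 55 IGF2BP2 regions of members passed the log2 threshold in both replicates but not the p threshold, as did 7 of PTBP1.

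PTBP1 had its clearest region in coding sequence of ATP5ME, subunit e of ATP synthase (chromosome 4, 673309 to 673401, minus strand). It rested on 356 IP reads to 14 input reads and on 289 to 10, by far the deepest of the enriched regions of either protein in these genes, with a log2 of 4.37 and 4.78. A single IGF2BP2 peak overlapped it, in replicate 2 only, and it was not enriched (log2 1.9). ATP5F1C, the γ subunit of the central stalk, had a region in coding sequence (chromosome 10, 7802336 to 7802413) with 29 to 1 and 25 to 2 reads and a log2 of 4.56 and 3.57. No IGF2BP2 peak met it.

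The other PTBP1 regions belonged to complex I. NDUFS1, an iron-sulfur core subunit, had 1 in an intron (chromosome 2, 206152419 to 206152507, 22 to 1 and 17 to 1 reads, log2 4.16 and 4.01) and 1 in coding sequence (206130123 to 206130243, 18 to 1 and 15 to 1 reads, log2 3.87 and 3.83). NDUFA10 had 2 in introns and 1 in coding sequence. The first, at 239961057 to 239961195, had 23 to 1 and 31 to 3 reads, and the weakest, at 240003785 to 240003882, had 51 to 5 and 45 to 5 reads and a log2 of 3.05 and 3.09, just past the threshold. NDUFA10 was the only gene of the 87 with an enriched region of both proteins, at different places. In all, 4 of the 7 PTBP1 regions lay in coding sequence and 3 in introns, and none lay in a UTR.

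**Figure D1:**
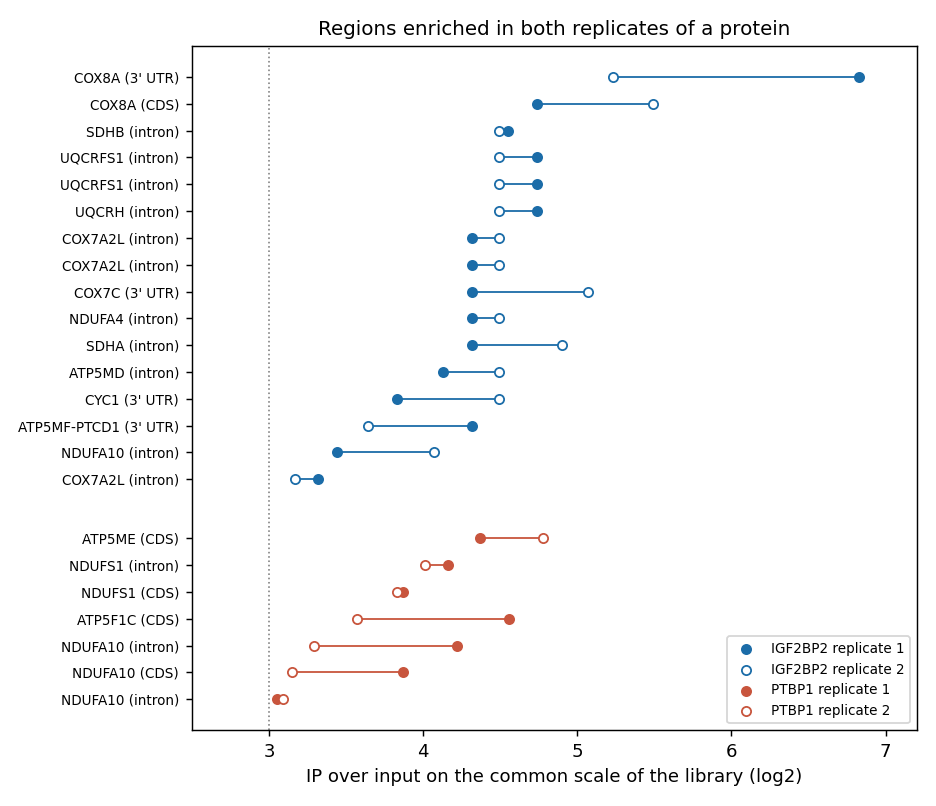
Log2 of IP over input (horizontal axis) for each region enriched in both replicates, IGF2BP2 above and PTBP1 below, with replicate 1 as a filled and replicate 2 as an open circle and the threshold of 3 dotted. The 3′ UTR region of COX8A lies highest at 6.83 and 5.23, and the 7 PTBP1 regions lie between 3.05 and 4.78.

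Sequence could be shown only for regions that reach the start of a transcript, where RefSeq promoter windows (GRCh38.p14, transcript strand) cover them. Of 7 such regions of members, 3 are printed, picked after their values were seen: the enriched one, and a deep and a moderate PTBP1 region. Capitals mark bases inside peaks of both replicates. The first is an enriched IGF2BP2 region, and the others are PTBP1 regions that were reproducible but not enriched.
COX7A2L, IGF2BP2, chr2:42361190-42361219, minus strand: GTCCTTCTCTGGGGCGGTCGCGTTGGCAGC
NDUFB8, PTBP1, chr10:100529822-100529851, minus strand: atggcgGTGGCCAGGGCCGGGGTCTTGGGA
NDUFA13, PTBP1, chr19:19516243-19516272, plus strand: CGGCGTCAAAGGTGAAGCAGGACATGCCTC
The COX7A2L bases run from position -2 to 28 counted from a RefSeq start site, although the lists annotate the region to an intron; it had 12 to 4 and 12 to 5 reads and a log2 of 3.32 and 3.17, the lowest of the 16. In NDUFB8, an accessory subunit of complex I, the bases run from 21 to 50, and here too the lists annotate the region to an intron. PTBP1 had 490 to 41 and 257 to 41 reads there, with a log2 of 3.28 and 2.57, and a similarly deep peak pair on the opposite strand at 482 to 37 and 386 to 48 reads (log2 3.40 and 2.93), so the strand of this signal is uncertain. The NDUFA13 region is annotated to coding sequence, with 48 to 12 and 62 to 16 reads and a log2 of 1.70 and 1.88. Motifs were counted in the 50 bases after the start in all 83 RefSeq windows of 69 member genes, with a peak there or not. The pyrimidine motif TCTT was held by 15.7% (16.0% of 35116 windows of all genes) and CTTT by 15.7% (17.5%). ACAC was held by 9.64% (12%) and GGAC by 24.1% (18.9%). Only the transcript strand was searched, and TCTT and CTTT can share bases.

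Set against the whole list, few oxidative phosphorylation genes differed between IGF2BP2 and PTBP1 in their share of peaks beyond the spread of the replicates. Peak density was the log2 of a gene's share of its list, and 71 of the 87 genes with at least 10 peaks over the 4 lists were tested, while 16 had too few. Of the 71, 6 passed (8.45%), against a background of 25.0% of 15145 genes (limma, adjusted p under 0.05 over all genes). Of these, 4 were higher in IGF2BP2 (background 12.3%) and 2 higher in PTBP1 (background 12.7%). The shares were not matched for peak number. Only 10 to 29 peaks over the 4 lists were held by 31 of the 71 members, and by 4395 of the 15145 genes. Whether the gap to the background goes with peak number was not tested. Without IGF2BP2 replicate 1 or 2, 20 and 18 members passed, and without PTBP1 replicate 1 or 2, 2 and 3. With TMM scaling 3 members passed, 1 higher in IGF2BP2 and 2 higher in PTBP1, against 3657 of all 15145 genes. The median difference of the members, IGF2BP2 minus PTBP1, was 0.23 on the log2 scale, against 0.01 over all genes tested, and 44 of 71 (62.0%) were positive, against 50.6% of all genes. PTBP1 lists are longer, so equal numbers of peaks give a positive difference. At 10 or more IP reads per peak the medians were -0.67 for the members and -0.65 for all genes, and both had changed sign.

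Among the genes higher in IGF2BP2 was ATP5F1D, the δ subunit of the central stalk of ATP synthase. It had 7 and 10 IGF2BP2 peaks against 5 and 4 PTBP1 peaks, a difference of 1.53 ± 0.44 (log2, SE; limma adjusted p = 0.0452). ATP5F1B, the catalytic β subunit, had 12 and 10 against 9 and 7 (1.13 ± 0.34, limma adjusted p = 0.0498). NDUFA13, an accessory subunit of complex I, had 12 and 20 against 10 and 11 (1.24 ± 0.36, limma adjusted p = 0.0455). In exons NDUFA13 had 5 and 1 IGF2BP2 peaks against 8 and 9 PTBP1 peaks, and its difference turned to -0.92 for exonic peaks and to -1.96 at 10 or more IP reads (limma adjusted p = 0.352 and 0.0053). None of these 3 genes passed with TMM scaling, where the limma adjusted p was 0.0541 for ATP5F1D, 0.0626 for ATP5F1B and 0.0566 for NDUFA13. None passed without PTBP1 replicate 1 or without PTBP1 replicate 2, with limma adjusted p of 0.188 and 0.218 for ATP5F1D, 0.217 and 0.277 for ATP5F1B, and 0.16 and 0.0827 for NDUFA13. Without IGF2BP2 replicate 2 it was 0.0692 for ATP5F1D and 0.0572 for NDUFA13. ATP5MF-PTCD1 differed by 0.51 ± 0.10 (limma adjusted p = 0.0118) with the peaks given above, and by -0.67 at 10 or more IP reads (limma adjusted p = 0.267).

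NDUFA9, an accessory subunit of complex I, lay on the PTBP1 side. It had 2 and 0 IGF2BP2 peaks, against 25 and 15 PTBP1 peaks, and these numbers do not overlap. The difference was -3.46 ± 0.79 (limma adjusted p = 0.0212) with a pseudocount of 0.5 peaks and -2.23 with 2 peaks, since the IGF2BP2 value rests on so few. It was -4.58 without IGF2BP2 replicate 1, -2.34 without IGF2BP2 replicate 2 and -6.69 by nucleotides covered. Of its PTBP1 peaks, 6 and 3 lay in exons, and none was enriched. NDUFC2-KCTD14, a readthrough gene that overlaps NDUFC2, had 13 and 16 IGF2BP2 peaks against 46 and 44 (-0.91 ± 0.22, limma adjusted p = 0.0243). Its call was lost without mirrored peaks, which overlap a peak on the other strand (-0.72, limma adjusted p = 0.0531), and without PTBP1 replicate 1 or 2 (limma adjusted p = 0.0843 and 0.126).

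**Figure D2:**
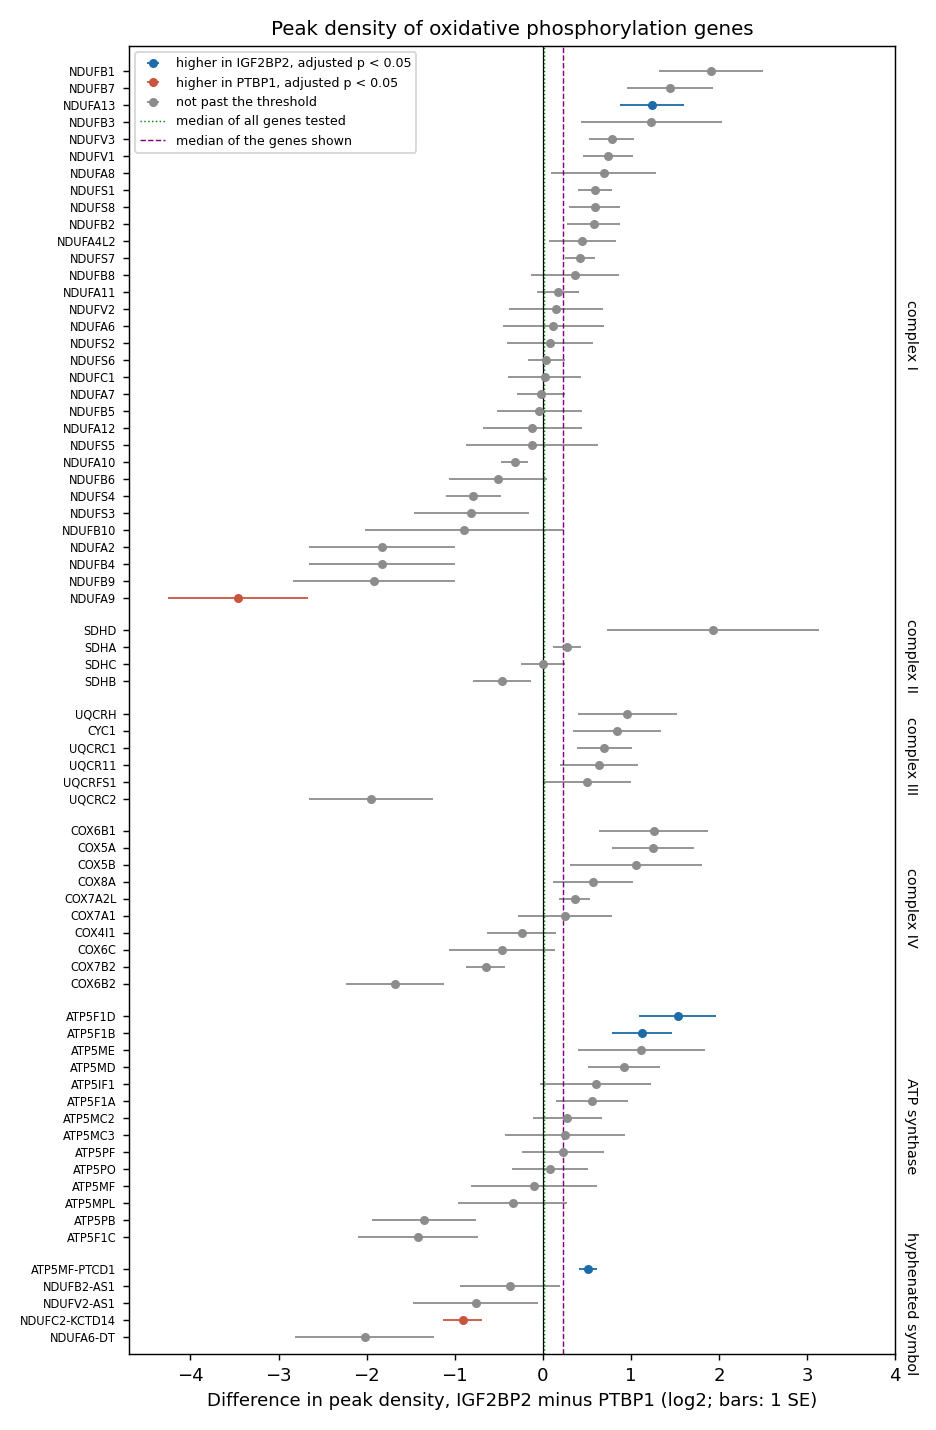
Difference in peak density, IGF2BP2 minus PTBP1 (log2, horizontal axis), with 1 SE for each of the 71 genes tested, sorted within complexes. Coloured points passed the threshold, 4 toward IGF2BP2 and 2 toward PTBP1. The dashed line is the members' median of 0.23 and the dotted line that of all genes, 0.01.

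By complex, ATP synthase had 2 of 14 tested genes past the threshold (14.3%, against 25.0% of all genes), both toward IGF2BP2 (12.3% of all genes), and a median difference of 0.26. Complex I had 1 of 32 in each direction and a median of 0.10, and its 7 core subunits had none, with a median of 0.42 and 6 of 7 positive. Complexes II, III and IV had 0 of 4, 0 of 6 and 0 of 10 genes past the threshold. By limma 18 of the 71 members had an unadjusted p under 0.05, against 6056 of 15145 genes.

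The core subunits had peaks of both proteins in all 4 lists. NDUFS1 had 38 and 29 IGF2BP2 peaks against 41 and 31 PTBP1 peaks (0.59 ± 0.19, limma adjusted p = 0.0627), and without IGF2BP2 replicate 2 it passed (0.74, limma adjusted p = 0.0055). NDUFV1, the NADH-binding flavoprotein of complex I, had 15 and 14 against 13 and 15 (0.74 ± 0.28, limma adjusted p = 0.0929). UQCRC1, a core protein of complex III, had 11 and 11 against 12 and 10, and CYC1 had 5 and 8 against 8 and 4 (0.84 ± 0.50, limma adjusted p = 0.253). The CYC1 difference ran from 0.46 to 1.22 with a library left out, and it passed in 1 of these 4 fits, without IGF2BP2 replicate 1 (1.2, limma adjusted p = 0.0491). COX4I1, the regulatory subunit of complex IV, had 5 and 6 against 10 and 12, numbers that do not overlap, but in lists of unequal length (-0.24 ± 0.39, limma adjusted p = 0.672). At 10 or more IP reads COX4I1 and UQCRC1 passed toward PTBP1 (-1.88 and -1.99, limma adjusted p = 0.00604 and 0.00585) and CYC1 toward IGF2BP2 (1.96, limma adjusted p = 0.0112). ATP5F1A, the α subunit of ATP synthase, had 8 and 16 against 12 and 13 (0.56 ± 0.41, limma adjusted p = 0.34). Its difference was 1.08 without IGF2BP2 replicate 1, which passed (limma adjusted p = 0.00697), and 0.04 without IGF2BP2 replicate 2 (limma adjusted p = 0.943). Some of these genes held PTBP1 regions of many reads and low log2. COX4I1 had a PTBP1 region of 111 to 44 and 95 to 40 reads with a log2 of 1.03 and 1.17 (chromosome 16, 85804961 to 85805150), and NDUFV1 had one of 152 to 62 and 78 to 32 reads with 0.99 and 1.21 (chromosome 11, 67608558 to 67608723). ATP5F1B had 5 reproducible regions of each protein, and none of them was enriched.

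All 4 succinate dehydrogenase genes fell short of the threshold in density. SDHA had 32 and 31 IGF2BP2 peaks against 45 and 40 PTBP1 peaks (0.27 ± 0.16), SDHB 7 and 6 against 15 and 15 (-0.46 ± 0.33), SDHC 13 and 15 against 26 and 20 (0.00 ± 0.25) and SDHD 6 and 1 against 0 and 3 (1.93 ± 1.2). The limma adjusted p was 0.247, 0.332, 0.990 and 0.265 in that order. SDHC and SDHD encode the membrane anchors of the complex, and neither had a peak in an exon in any list. Without PTBP1 replicate 2, which held all of its PTBP1 peaks, SDHD passed (3.41, limma adjusted p = 0.0201). It was 0.45 without PTBP1 replicate 1, 0.92 without IGF2BP2 replicate 1 and 2.95 without IGF2BP2 replicate 2 (limma adjusted p = 0.824, 0.711 and 0.0659). At 10 or more IP reads SDHA passed toward PTBP1 (-1.37, limma adjusted p = 0.0307). The enriched IGF2BP2 regions of SDHA and SDHB met no PTBP1 peak, and the difference between the proteins at these sites was not tested.

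The members' IGF2BP2 peaks lay less in coding sequence and more in introns than their PTBP1 peaks, by more than the spread of the replicates. Coding sequence held 9.26% and 10.9% of the members' IGF2BP2 peaks against 14.6% and 14.3% of their PTBP1 peaks, or 10.1% ± 1.16 against 14.5% ± 0.235 (SD, n = 2 each), a difference of -4.39 points (exact permutation p = 0.333, two-sided). All genes differed by -4.48 points. Introns held 81.4% and 80.5% against 75.9% and 76.3%, a difference of 4.83 points (exact permutation p = 0.333), where all genes differed by 0.375. With 2 libraries against 2, 0.333 is the smallest p possible. Among enriched peaks the differences were -32.9 points in coding sequence and 25.2 in introns, but these peaks were few. Coding sequence held 4 of 67 and 4 of 55 enriched IGF2BP2 peaks, against 6 of 25 and 11 of 20 of PTBP1. Introns held 54 and 45 of them, against 18 and 8. The PTBP1 replicates thus lay far apart. At 10 or more IP reads the differences were -9 and -1.18.

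The 3′ UTRs held 5.11% and 5.71% of the members' IGF2BP2 peaks against 5.31% and 4.28% of their PTBP1 peaks, so that the libraries overlapped, and the difference was 0.613 points (exact permutation p = 0.667). Over all genes it was 3.68 points. Among enriched peaks the members' difference was 8.18 points, from 7 of 67 and 6 of 55 IGF2BP2 peaks against 0 of 25 and 1 of 20 PTBP1 peaks. At 10 or more IP reads the difference was 4.33. Without ATP5MF-PTCD1 and NDUFA10, a choice made after seeing the data, it was -0.0574. In 5′ UTRs lay 1.31% and 1.3% of the members' IGF2BP2 peaks and 1.13% and 1.63% of their PTBP1 peaks (exact permutation p = 1.0). The difference of the members from all genes was not tested.

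**Figure D3:**
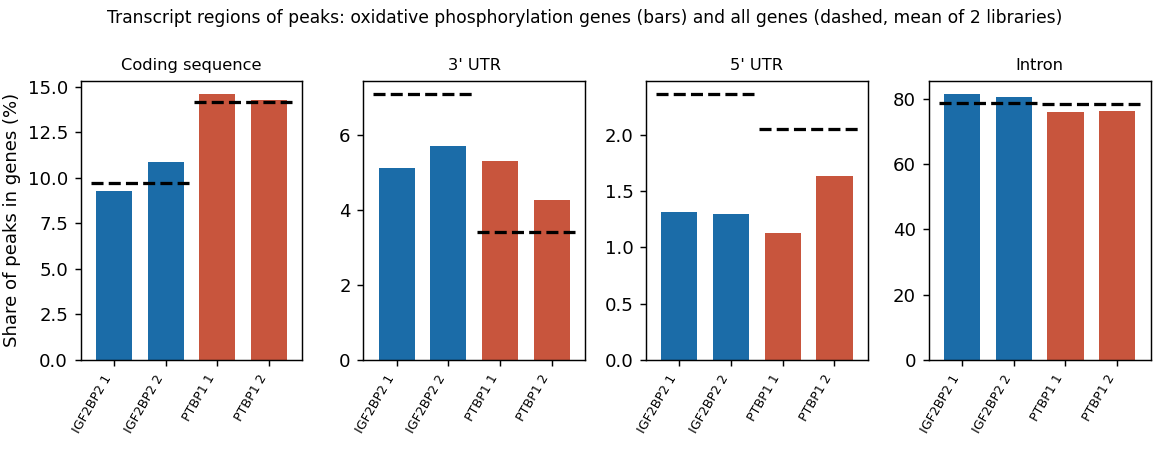
Share of the members' peaks (vertical axis, percent) in each transcript region and library, IGF2BP2 left of PTBP1, with dashed lines for the mean over all genes. In 3′ UTRs the 4 bars lie between 4.28% and 5.71%, while the dashed lines stand at 7.09% for IGF2BP2 and 3.41% for PTBP1.

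In 3′ UTRs and introns a larger share of the members' peaks was enriched in both IGF2BP2 libraries than in either PTBP1 library. In 3′ UTRs, 16.3% and 13.6% of the members' IGF2BP2 peaks were enriched (7 of 43 and 6 of 44), against 0 of 66 and 1 of 50 PTBP1 peaks. With peaks taken as independent, 0 of 66 allows a share of up to 4.55%. They are not all independent, as ATP5MF-PTCD1 held several 3′ UTR peaks of both proteins. Over all genes the shares were 20.9% and 20.9%, against 2.22% and 2.15%. In coding sequence 5.13% and 4.76% of the members' IGF2BP2 peaks were enriched, against 3.3% and 6.59% of their PTBP1 peaks, which overlap (over all genes 5.34% and 5.79%, against 5.92% and 5.53%). In introns the shares were 7.88% and 7.26% against 1.91% and 0.898%, and over all genes 8.67% and 8.81% against 2.42% and 2.37%. Over all regions 7.96% and 7.14% of the members' IGF2BP2 peaks were enriched, against 2.01% and 1.71% of their PTBP1 peaks, each below the value for the whole list (9.18% and 9.35%, 2.91% and 2.81%). The constants named above differ between the proteins and enter each of these pairs.

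Reproducibility of the members' peaks was close to that of the lists. The other replicate had an overlapping peak for 42.5% and 47.7% of the IGF2BP2 peaks (48.2% and 51.6% of all) and for 55.4% and 60.1% of the PTBP1 peaks (55.6% and 61.5% of all). This gave 325 regions in 66 genes for IGF2BP2, of which 62 were exonic, in 31 genes, and 634 regions in 76 genes for PTBP1, of which 141 were exonic, in 55 genes. A peak of the other protein overlapped 44.9% and 44.4% of the IGF2BP2 peaks (44.5% and 44.4% of all) and 29.1% and 29.1% of the PTBP1 peaks (26.6% and 27.5% of all). Of the members' peaks, 13.8% and 14.8% in IGF2BP2 and 15.4% and 14.1% in PTBP1 overlapped a peak on the opposite strand of the same list, against 10.7% to 11.6% of all peaks.

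Other genes of the pathway were read from lists of assembly factors, regulators and mitochondrial ribosomal proteins. Of 54 assembly factors, which build the complexes without being part of them, 10 (18.5%) had an enriched region of IGF2BP2 and 3 (5.56%) one of PTBP1. Of 77 mitochondrial ribosomal proteins, which translate the subunits encoded in mitochondrial DNA, 10 (13.0%) and 5 (6.49%) had one. Of 9 regulators, 1 (11.1%) had one of IGF2BP2 and 2 (22.2%) one of PTBP1. Among all genes the shares were 19.4% and 14.0%, not matched to these lists for peak number. In density, where 25.0% of all genes passed, 8 of 48 assembly factors tested did (16.7%), 3 toward IGF2BP2 and 5 toward PTBP1. ACAD9, an assembly factor of complex I, had 59 and 41 IGF2BP2 peaks against 33 and 33 PTBP1 peaks (1.26 ± 0.19, limma adjusted p = 0.00565), and NDUFAF2, another, had 15 and 10 against 72 and 51 (-1.57 ± 0.24, limma adjusted p = 0.00556). Of 67 ribosomal protein genes 5 passed (7.46%), 3 toward IGF2BP2 and 2 toward PTBP1, among them MRPL42 with 14 and 12 against 5 and 2 peaks (2.55 ± 0.48, limma adjusted p = 0.0111). Of 8 regulators tested 5 passed (62.5%). PPRC1, a coactivator of nuclear genes for mitochondrial proteins, had 37 and 38 IGF2BP2 peaks against 37 and 34 PTBP1 peaks (0.77 ± 0.16, limma adjusted p = 0.0167) and 6 enriched IGF2BP2 regions and 1 of PTBP1. PPARGC1B, a related coactivator, had 21 and 14 peaks against 69 and 54 (-1.11 ± 0.22, limma adjusted p = 0.0128). CYCS, the electron carrier cytochrome c, had no enriched region of either protein.

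**Figure D4:**
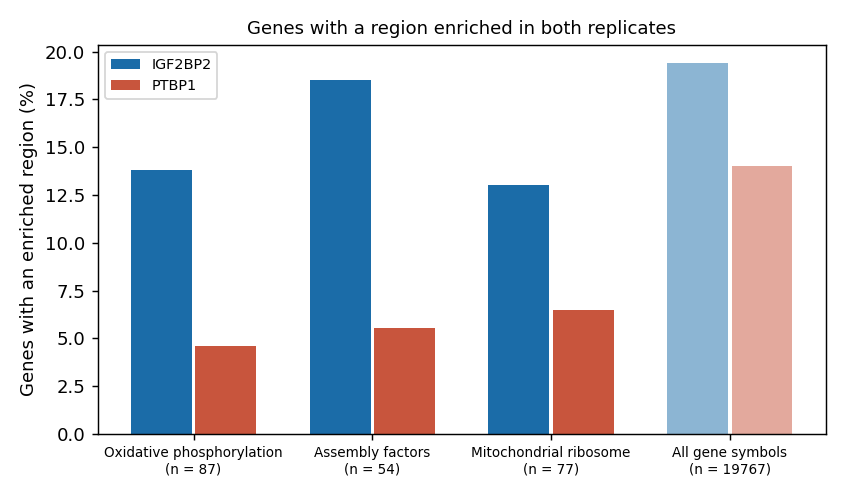
Percent of genes (vertical axis) with a region enriched in both replicates, IGF2BP2 left of PTBP1, for the 87 oxidative phosphorylation genes, 54 assembly factors, 77 mitochondrial ribosomal protein genes and all 19767 genes (paler). The PTBP1 bars of the 3 lists lie between 4.6% and 6.49%, and that of all genes at 14.0%. The 9 regulators, with 22.2% for PTBP1, are not shown. Shares are not matched for peak number.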

How the data were processed

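Members and gene lists were chosen with earlier results of these data known. Reads were aligned with HISAT2 to hg38, per the submitters' processing notes; peak caller and annotation: not given in the sources used here. The authors deposited 1 peak list per IP library, and inputs as such are not analysed here. Per the file headers each peak has a −log10 p (deposited values end at 400), a gene, a region and an overlap length in nucleotides, which was not used. A deposited column headed as a count holds log2 values: log2 of IP over input reads plus a constant per chromosome, as read from the values. From both columns IP and input reads were recovered for 98.3% to 99.5% of eligible peaks per library (tolerance 1% on the −log10 p, exact binomial or continuity-corrected chi-square test), and all chromosomes were put on the library's median constant. Simulated reads came back right in 99.8% of 2913 peaks.

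Regions need an overlap of at least 1 nt on the same strand. Density was log2((peaks + 0.5)/(peaks in the list + 1) × 10000), tested with limma 3.58.1 (R 4.3.3, trend) on 15145 genes, with Benjamini-Hochberg adjustment at 0.05. On simulated lists with a fixed spread, 74.0% of 200 genes changed 4-fold were called among 15145. The changed genes were drawn from those with more peaks than many members have. Recovery for genes with few peaks was not measured. The labels do not say whether the replicates were separate cultures; if not, p-values reflect technical spread alone. Region shares leave out intergenic peaks and were compared with a two-sided exact permutation test (scipy 1.17.1). RefSeq (GRCh38.p14) matched 86 of 87 members. Genes described in full were those with an enriched region, those past the density threshold (up to 6 per direction), 8 core subunits (NDUFS1, NDUFV1, SDHA, UQCRC1, CYC1, COX4I1, ATP5F1A, ATP5F1B) and the succinate dehydrogenase genes; NDUFB8, the printed sequences and the genes of other lists were picked after their values were seen. Peak sequences and motifs over peaks, planned for the case that a genome came, could not be read. Alternatives covered scaling, pseudocount, minimum peaks, region thresholds, shallow and mirrored peaks, and leaving out each replicate.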

Additional observations from a re-analysis of the deposited data

How the results depend on the processing

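Which oxidative phosphorylation genes passed in density depended on the settings. The main fit gave 6 genes (4 higher in IGF2BP2, 2 in PTBP1), where 3782 of all 15145 passed. TMM scaling gave 3 (1 higher in IGF2BP2), against 3657 of all genes. A pseudocount of 2 gave 12 (9 in IGF2BP2), against 4519. With no minimum of peaks, 4 of 87 passed (2 in IGF2BP2), against 3025 of 19767. Nucleotides covered gave 15 (9 and 6), against 5524 of 15145. Peaks of at least 10 IP reads gave 12 of 31 tested (2 and 10), where 4075 of all 8046 genes passed, 2776 of them higher in PTBP1. Exonic peaks gave 0 of 22 tested by limma, in either direction, with 7 at an unadjusted p under 0.05, against 1473 and 3213 of all 8358 genes. Without mirrored peaks 6 of 67 tested passed, 5 higher in IGF2BP2 and 1 in PTBP1, against 3587 of all 14510 genes. Leaving out each library in turn gave 2 to 20 genes, 1 to 11 of them higher in IGF2BP2 and 1 to 9 higher in PTBP1. Deviations of libraries with equal replicate numbers from the means of their proteins correlated at -0.002. Many genes have few peaks, so this cannot show whether such libraries were paired. With the replicate block 13 genes passed (7 and 6), against 4763 of all 15145. Over all genes, calls numbered 3782, and 2267 to 6388 with a library left out. The cause of these changes was not tested.

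Single genes changed direction once shallow peaks were left out, or in exons. For exonic peaks the difference was -0.92 for NDUFA13, -0.37 for NDUFS1, -0.12 for NDUFV1, -0.32 for SDHA and -0.64 for ATP5F1A. At 10 or more IP reads it was -1.96 for NDUFA13, -1.37 for SDHA and -1.99 for UQCRC1, which passed. It was -1.09 for NDUFS1, -0.65 for NDUFV1 and -0.67 for ATP5MF-PTCD1, which did not pass. The median of all genes was -0.65 at this setting. SDHC, at 0.00, gave -0.07 with TMM scaling, -0.22 with nucleotides covered and -0.14 to 0.15 with a library left out, and UQCRFS1 gave -0.41 with nucleotides covered. Over the named genes and settings, 211 values kept direction and side of the threshold, 22 lost the call, 16 gained one and 16 changed direction.

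Genes with an enriched region, 12 for IGF2BP2 and 4 for PTBP1, numbered 2 and 1 once the log2 threshold was 4 and that of −log10 p was 5. On the deposited scale, without a common one, IGF2BP2 had 13 and PTBP1 12. With 1 replicate only, IGF2BP2 had 27 to 29 and PTBP1 13 to 15. Demanding an overlap of 50%, or leaving out mirrored peaks, gave 12 and 4 again. Shares of all genes at these other settings are not given here. The coding-sequence difference, -4.39 points, ran from -32.9 for enriched peaks, which were few, to -3.57 without IGF2BP2 replicate 1. The 5′ UTR difference, -0.0746 points, was 0 for enriched peaks, 3.85 at 10 or more IP reads, 0.496 by nucleotides covered and -0.326 to 0.176 with a library left out. At 10 or more IP reads the intron difference was -1.18, and without ATP5MF-PTCD1 and NDUFA10 the 3′ UTR difference was -0.0574, a choice made after seeing the data.

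Depth limits these lists: 39.4% and 34.3% of the members' IGF2BP2 peaks with recovered reads, and 7.13% and 11.1% of their PTBP1 peaks, rested on 3 IP reads. The upper limit of 4.55% covers counting error only and takes peaks as independent. Values after ± are limma SE, or the SD between libraries for region shares.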
